A study of Mus musculus with 20 samples.

Results

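The VEGF and angiopoietin genes examined here are 10 of the 39253 genes in the count table: the ligands Vegfa, Vegfb, Vegfc, Angpt1 and Angpt2, the receptors Kdr, Flt1, Flt4 and Tek, and the co-receptor Nrp1. They were taken by gene symbol, from a list chosen with earlier results of these data known. All 10 passed the filter on low counts, as did 17810 genes in all. Their Entrez Gene identifiers in the deposited tables are 22339 for Vegfa, 22340 for Vegfb, 22341 for Vegfc, 16542 for Kdr, 14254 for Flt1, 14257 for Flt4, 18186 for Nrp1, 11600 for Angpt1, 11601 for Angpt2 and 21687 for Tek.

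Female mice of the outbred CD-1 stock were exposed to iodoacetic acid, a by-product of water disinfection, at 10 mg/L or 500 mg/L in the drinking water, and control mice drank water alone. Exposure began at 40 days of age and lasted 35 days. Each library held the pooled antral follicles of 1 mouse in diestrus, 30 to 40 follicles of 220 to 400 µm, so the 20 libraries were 20 animals. Experiment 2 held the 5 mice at 10 mg/L and control replicates 1 to 5, and experiment 1 held the 5 mice at 500 mg/L and control replicates 6 to 10. Dose and experiment therefore cannot be told apart where the doses are compared with each other. Each dose was compared with all 10 controls, which the submitters combined, and with the 5 controls of its own experiment, and a value given below is against all 10 controls where nothing else is said.

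An antral follicle is fed by capillaries in its theca layer, while the granulosa layer inside the basement membrane has no vessels before ovulation. VEGF-A, made by granulosa and theca cells, signals through VEGFR2 on endothelial cells to make them divide, migrate and become permeable, and VEGFR1 binds the same ligand and holds part of it back. The angiopoietins share the receptor TIE2: angiopoietin 1 from perivascular cells keeps vessels stable, and angiopoietin 2 from endothelial and other cells loosens them, so that vessels sprout where VEGF-A is present and regress where it is not. VEGF-C acts through VEGFR3, above all on lymphatic vessels.

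Library totals were 39.9 to 51.5 M estimated counts at 10 mg/L, 43.1 to 67.5 M at 500 mg/L and 41.7 to 51.0 M in controls (M for mega). No library stood apart as a copy of another, and all 10 sets of cell markers used below were present in every group with no member at 0 in all mice. In whole follicles, fewer cells of a type and less RNA per cell cannot be told apart. Gene counts also pool the transcripts of a gene, so the soluble and the membrane form of VEGFR1, or the splice forms of VEGF-A, are summed.

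The promoters of Kdr, Flt1, Nrp1, Tek and Vegfc are shown because the levels of these 5 genes moved together from mouse to mouse. Each is the 250 bases before the gene's start, 5′ to 3′ on the gene's strand, from RefSeq on GRCm38.p6, an older build than the GRCm39 of the submitters' processing notes. Capitals mark each GGAA and its reverse complement TTCC, the core of the site bound by ETS factors, a family that includes regulators of endothelial genes. Kdr lies on the minus strand of chromosome 5, Flt1 on the minus strand of chromosome 5, Nrp1 and Vegfc on the plus strand of chromosome 8 and Tek on the plus strand of chromosome 4.
Kdr, chr5:75978456-75978705: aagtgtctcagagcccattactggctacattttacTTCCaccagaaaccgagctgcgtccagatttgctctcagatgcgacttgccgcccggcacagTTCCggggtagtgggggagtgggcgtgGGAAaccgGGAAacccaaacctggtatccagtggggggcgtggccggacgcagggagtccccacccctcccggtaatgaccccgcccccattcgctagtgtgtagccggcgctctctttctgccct
Flt1, chr5:147726012-147726261: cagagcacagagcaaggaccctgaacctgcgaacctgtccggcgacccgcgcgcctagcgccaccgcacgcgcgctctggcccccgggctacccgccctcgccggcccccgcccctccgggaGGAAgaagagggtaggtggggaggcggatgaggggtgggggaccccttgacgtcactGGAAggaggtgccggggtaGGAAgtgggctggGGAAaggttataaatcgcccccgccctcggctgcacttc
Nrp1, chr8:128358823-128359072: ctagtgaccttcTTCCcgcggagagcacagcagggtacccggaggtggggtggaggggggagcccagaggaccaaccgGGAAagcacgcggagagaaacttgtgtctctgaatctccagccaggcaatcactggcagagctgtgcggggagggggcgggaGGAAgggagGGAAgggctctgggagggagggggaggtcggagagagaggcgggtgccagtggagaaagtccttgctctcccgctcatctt
Tek, chr4:94739039-94739288: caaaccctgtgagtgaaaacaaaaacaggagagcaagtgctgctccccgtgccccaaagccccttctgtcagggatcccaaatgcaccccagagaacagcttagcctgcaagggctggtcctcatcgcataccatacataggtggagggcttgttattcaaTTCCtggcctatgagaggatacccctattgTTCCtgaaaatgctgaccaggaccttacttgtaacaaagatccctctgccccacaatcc
Vegfc, chr8:54077282-54077531: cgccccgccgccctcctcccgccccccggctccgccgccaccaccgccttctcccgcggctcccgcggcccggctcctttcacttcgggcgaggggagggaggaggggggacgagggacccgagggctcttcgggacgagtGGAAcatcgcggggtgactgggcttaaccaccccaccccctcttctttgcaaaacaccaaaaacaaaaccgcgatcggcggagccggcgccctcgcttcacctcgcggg

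The core was found 4 times before Kdr, 4 times before Flt1, 4 times before Nrp1, 2 times before Tek and 1 time before Vegfc. It is a common word: 93.4% of 32851 mouse promoter windows of the same length held it on either strand, with a median of 3 matches. The core of the hypoxia factor site, ACGTG or GCGTG on either strand, was found 2 times before Kdr, 1 time before Flt1, 1 time before Nrp1 and 0 times before Tek and Vegfc, and 38.6% of all windows held it. These matches describe the letters only. Promoter windows were matched for 8 of the 10 genes, all but Angpt1 and Angpt2. Angpt1 moved together with the genes shown, and is left out for want of a window.

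No member passed an adjusted p of 0.05 in any comparison by edgeR's quasi-likelihood test with Benjamini-Hochberg adjustment over the 17810 genes. Against all controls, 0 of 10 members passed at 10 mg/L, where 0.00561% of all genes did. At an unadjusted p under 0.05, 1 of 10 passed (Tek), beside 6.22% of all genes. For the mice at 500 mg/L against all controls, 0 of 10 members passed after adjustment, where 0.0112% of all genes did, and 0 of 10 without adjustment, where 8.69% did. The signs at 10 mg/L were alike: 10 of 10 members had a positive log2 change, with a median of 0.26, whereas 49.9% of all genes were positive, with a median of -0.00. The 500 mg/L mice had 7 of 10 positive, with a median of 0.06. Because the members varied together from mouse to mouse, the 10 signs are not 10 separate observations. Without replicate 2 of the 10 mg/L mice 9 of 10 were positive, and without replicate 5 the median was 0.16. The count at an unadjusted p under 0.05 became 2 without control replicate 4, replicate 5 at 10 mg/L or replicate 3 at 500 mg/L, 3 without control replicate 7 or replicate 1 at 10 mg/L, and 4 without replicate 3 at 10 mg/L. Leaving out single mice put the median at 500 mg/L between 0.01 and 0.14. Without control replicate 1 or replicate 2 at 500 mg/L, 1 member there had an unadjusted p under 0.05. The share of all genes at such a p was not counted with a mouse left out, here or below, so these counts have no background.

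Within the experiments the counts were much alike. Against the controls of experiment 2, 10 of 10 members were positive at 10 mg/L with a median log2 change of 0.27. After adjustment 0 of 10 passed (0.00% of all genes), and 1 of 10 had an unadjusted p under 0.05 (6.45% of all genes). Against the controls of experiment 1, 7 of 10 were positive at 500 mg/L with a median of 0.03. There 0 of 10 passed after adjustment (0.00% of all genes) and 0 of 10 without it (5.19% of all genes). For each member, in each of these comparisons, the values of exposed and control mice overlapped. The share of all genes with such an overlap was not counted, so this is a description only.

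**Figure D1:**
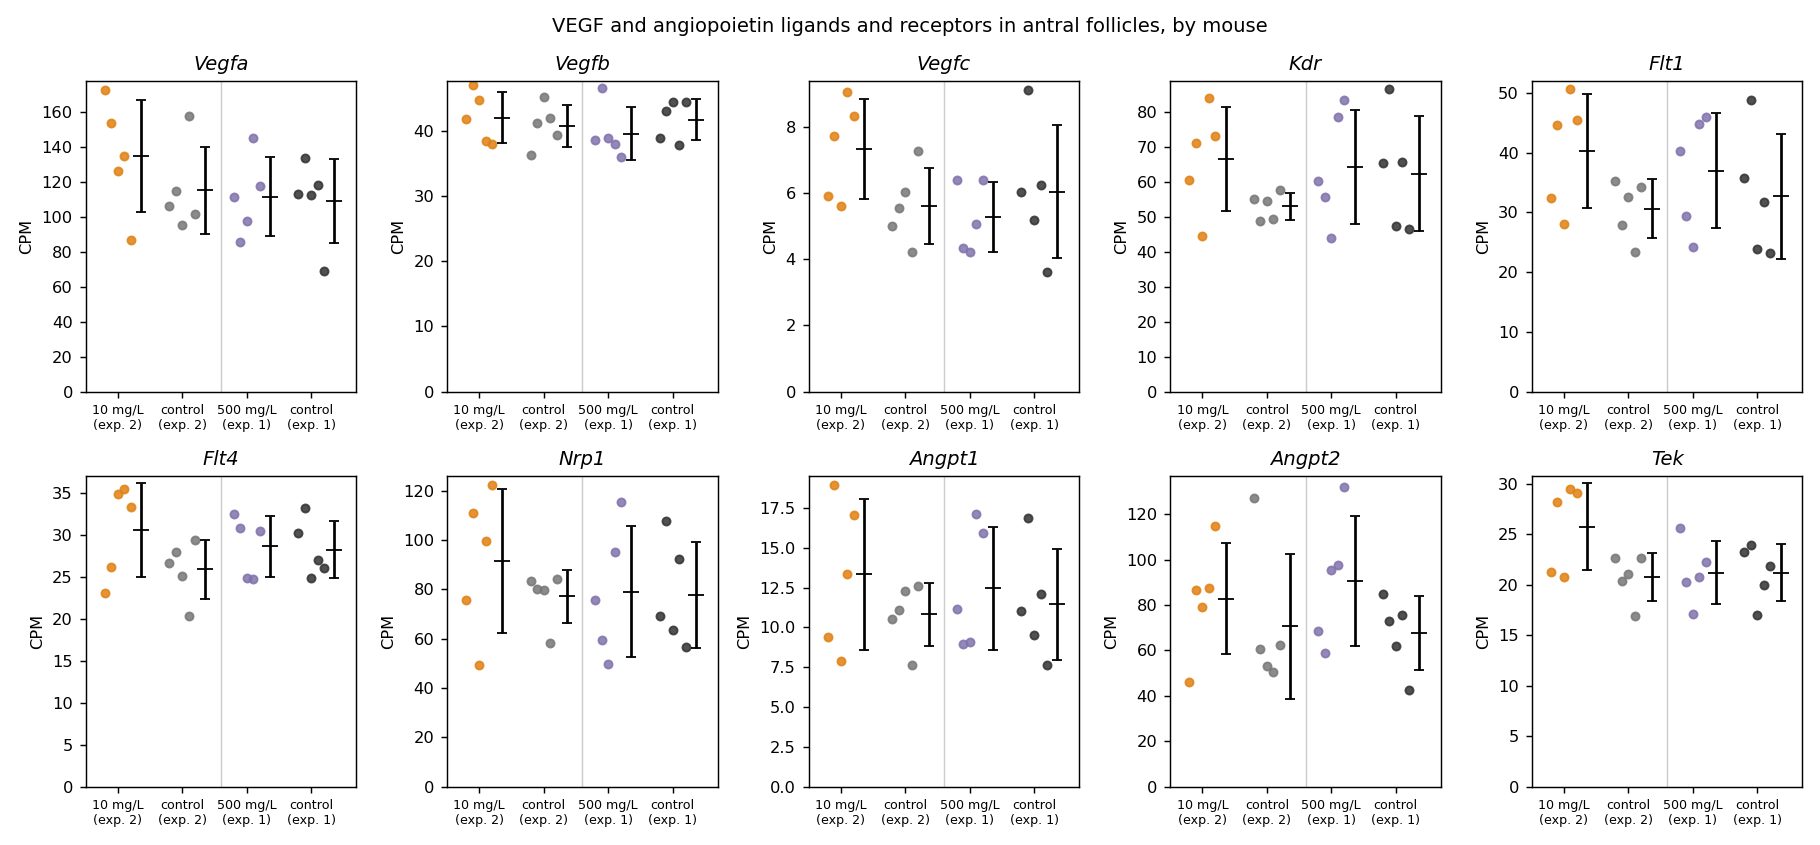
Level of each gene in CPM (estimated counts per 1 M of the scaled library total) in every mouse, 1 point per mouse, with the mean and SD of each set of 5 mice at its right. The exposed set stands left of the controls of its own experiment, and in every panel the sets overlap.

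Vegfa encodes the ligand of VEGFR1 and VEGFR2. At 10 mg/L it had 173, 154, 126, 135 and 86.9 CPM, and at 500 mg/L 111, 85.7, 97.4, 145 and 118 CPM, against 69.2 to 158 CPM in controls (median 113). Of the mice at 10 mg/L, 4 of 5 lay above the control median, but only the highest lay above every control. The log2 change was 0.26 ± 0.16 at 10 mg/L (SE, adjusted p = 0.833) and -0.01 ± 0.16 at 500 mg/L (adjusted p = 0.995). The 95% confidence intervals ran from -0.07 to 0.60 at 10 mg/L and from -0.35 to 0.33 at 500 mg/L, so a change of up to 1.52-fold at 10 mg/L lies within the error.

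Vegfb, a ligand of VEGFR1 known for heart and fat tissue, was the steadiest member. It averaged 42.0 ± 3.92 CPM at 10 mg/L (SD, n = 5), 39.6 ± 4.06 CPM at 500 mg/L (n = 5) and 41.3 ± 3.07 CPM in controls (n = 10), and its coefficient of variation over all 20 mice was 8.44%. Its intervals were also the narrowest, with a log2 change of 0.03 (-0.12 to 0.17) at 10 mg/L and -0.06 (-0.20 to 0.09) at 500 mg/L.

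Vegfc, the ligand of VEGFR3, had 5.90, 7.73, 5.61, 9.04 and 8.32 CPM at 10 mg/L. The mice at 500 mg/L had 6.39, 4.33, 4.23, 5.08 and 6.40 CPM, and controls ranged from 3.62 to 9.11 CPM with a median of 5.78. The 10 mg/L mice lay in the middle and upper part of the control range and none above its top, and the 500 mg/L mice lay in the lower and middle part. All 5 mice at 10 mg/L were above the median of their own controls, and the log2 change there was 0.38 ± 0.21 (SE, adjusted p = 0.797). Against all controls it was 0.33 ± 0.18 at 10 mg/L (adjusted p = 0.819) and -0.14 ± 0.18 at 500 mg/L (adjusted p = 0.880).

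Angpt1, the stabilising ligand of TIE2, had 9.39, 18.9, 7.89, 13.4 and 17.0 CPM at 10 mg/L and 11.1, 8.94, 9.07, 17.1 and 15.9 CPM at 500 mg/L, against 7.61 to 16.9 CPM in controls (median 11.1). Each exposed group was split, with some mice near the bottom of the control range and 2 mice at 10 mg/L and 1 mouse at 500 mg/L above its top. The log2 change was 0.26 ± 0.21 at 10 mg/L (SE, adjusted p = 0.883) and 0.16 ± 0.21 at 500 mg/L (adjusted p = 0.882). It was 0.10 at 10 mg/L without replicate 2 and 0.01 at 500 mg/L without replicate 4.

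Angpt2, the destabilising ligand, had the widest spread of the members, with a coefficient of variation of 33.0% over the 20 mice. It had 46.2, 86.5, 78.9, 87.5 and 115 CPM at 10 mg/L and 68.6, 58.9, 95.4, 97.7 and 132 CPM at 500 mg/L, against 42.5 to 127 CPM in controls (median 62.2). In each exposed group 4 of 5 mice lay above the control median, and 1 control, replicate 1, lay above all but 1 of the exposed mice. The largest change of a member at 500 mg/L was that of Angpt2, a log2 change of 0.39 ± 0.23 (SE, adjusted p = 0.670), with an interval of -0.09 to 0.87. The change at 10 mg/L was 0.26 ± 0.23 (adjusted p = 0.898). Without replicate 5 of the dose it was 0.21 at 500 mg/L and 0.11 at 10 mg/L.

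Kdr encodes VEGFR2, the main signalling receptor of VEGF-A, and averaged 66.6 ± 14.9 CPM at 10 mg/L (SD, n = 5), 64.3 ± 16.4 CPM at 500 mg/L (n = 5) and 57.6 ± 12.3 CPM in controls (n = 10). The log2 change was 0.21 ± 0.17 at 10 mg/L (SE, adjusted p = 0.882) and 0.16 ± 0.17 at 500 mg/L (adjusted p = 0.843). It was 0.33 ± 0.19 at 10 mg/L and 0.05 ± 0.19 at 500 mg/L against the controls of the same experiment, and the value at 500 mg/L against all controls was also 0.05 without replicate 5. The 2 sets of controls were unlike in spread, with a coefficient of variation of 26.5% in experiment 1 and 7.27% in experiment 2, and the controls of experiment 1 were higher by a log2 of 0.23 ± 0.19.

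Flt1, which encodes VEGFR1, had 32.4, 44.7, 28.1, 50.6 and 45.6 CPM at 10 mg/L and 40.3, 29.4, 24.3, 44.8 and 46.0 CPM at 500 mg/L, against 23.2 to 48.8 CPM in controls (median 32.2). Above the control median lay 4 of 5 mice at 10 mg/L and 3 of 5 mice at 500 mg/L, and 1 exposed mouse lay above every control. The log2 change was 0.35 ± 0.18 at 10 mg/L (SE, adjusted p = 0.817), the largest of the members, and 0.22 ± 0.18 at 500 mg/L (adjusted p = 0.777). Flt4, which encodes VEGFR3, averaged 30.7 ± 5.60 CPM at 10 mg/L (SD, n = 5), 28.7 ± 3.63 CPM at 500 mg/L (n = 5) and 27.1 ± 3.48 CPM in controls (n = 10). Its log2 change was 0.18 ± 0.11 (SE) at 10 mg/L and 0.08 ± 0.11 at 500 mg/L, and 0.24 ± 0.13 and 0.02 ± 0.13 at these doses against the controls of the same experiment.

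Nrp1 encodes neuropilin 1, which binds VEGF-A beside VEGFR2 and also serves semaphorins in other cells. It averaged 91.5 ± 29.3 CPM at 10 mg/L (SD, n = 5), 79.2 ± 26.7 CPM at 500 mg/L (n = 5) and 77.6 ± 16.0 CPM in controls (n = 10). The log2 change was 0.24 ± 0.21 at 10 mg/L (SE) and 0.03 ± 0.21 at 500 mg/L, and the value at 10 mg/L was 0.11 without replicate 5.

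Tek, which encodes TIE2, came nearest to a call. It had 21.3, 28.2, 20.8, 29.5 and 29.1 CPM at 10 mg/L and 25.6, 20.3, 17.1, 20.8 and 22.3 CPM at 500 mg/L, against 16.9 to 24.0 CPM in controls (median 21.5). At 10 mg/L replicates 2, 4 and 5 lay above every control, while replicates 1 and 3 lay just under the control median. The log2 change was 0.30 ± 0.11 (SE), with an interval of 0.07 to 0.52, an unadjusted p of 0.0115 and an adjusted p of 0.727 by edgeR's quasi-likelihood test. Against the controls of experiment 2 it was 0.31 ± 0.13 (unadjusted p = 0.0238, adjusted p = 0.751). The 500 mg/L mice gave 0.02 ± 0.11, with an interval of -0.21 to 0.24.

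**Figure D2:**
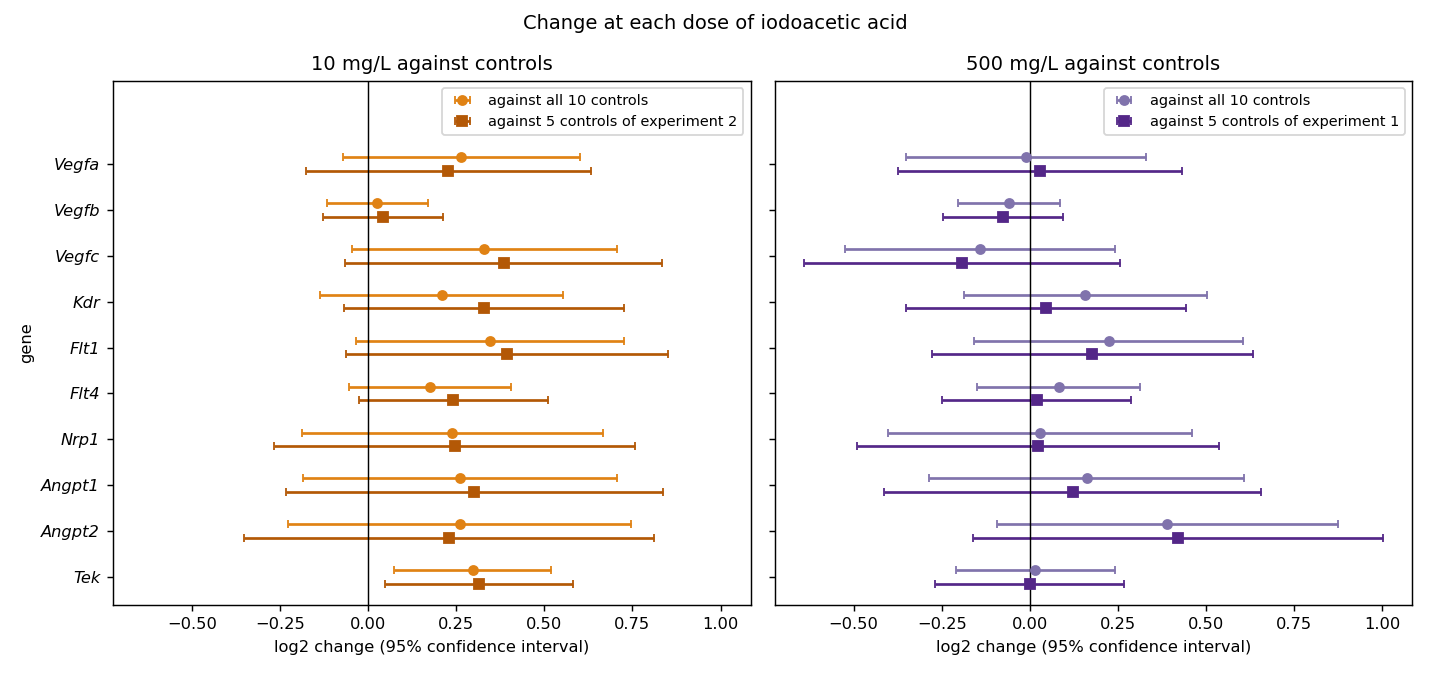
Log2 change of each gene with its 95% confidence interval, at 10 mg/L (left) and 500 mg/L (right), against all 10 controls (circles) and the 5 controls of the same experiment (squares). All points at 10 mg/L lie right of 0, and the intervals of Tek there are the only ones that leave out 0.

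The doses were set against each other, a comparison that also holds the difference between experiments. Values at 500 mg/L were lower than at 10 mg/L for 9 of 10 members, with a median log2 difference of -0.11. With 3 surrogate variables in the model, 5 of 10 were lower, as Kdr, Flt1, Nrp1 and Angpt1 took the other sign. After adjustment 0 of 10 members passed, beside 0.0112% of all genes, and 2 of 10 had an unadjusted p under 0.05 (Vegfc and Tek), beside 10.0% of all genes. That count was 0 without replicate 2 or 4 at 10 mg/L or replicate 2, 3 or 4 at 500 mg/L, and 1 without replicate 5 at 10 mg/L. Vegfc differed by -0.47 ± 0.21 (SE, adjusted p = 0.462) and Tek by -0.28 ± 0.12 (adjusted p = 0.461). No mouse at 500 mg/L lay above the 10 mg/L median for Vegfc, Flt4 or Tek. The share of all genes with such an order was not counted, so this is a description only.

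The difference between the within-experiment effects of the 500 and 10 mg/L doses was tested directly and left 0 of 10 members past the adjusted threshold, beside 0.00% of all genes, and 0 of 10 without adjustment, beside 5.41%. It was -0.58 ± 0.30 for Vegfc (SE, unadjusted p = 0.0725, adjusted p = 0.920) and -0.31 ± 0.18 for Tek (unadjusted p = 0.0974, adjusted p = 0.934). The controls of experiment 1 did not differ detectably from those of experiment 2 in any member: 0 of 10 passed after adjustment, beside 0.157% of all genes, and 0 of 10 without, beside 9.78%. That comparison had wide intervals, for example -0.64 to 0.52 for Angpt2.

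In the authors' deposited table the fold changes had the same signs, except that of Vegfa at 500 mg/L (1.03). For 10 mg/L against controls it lists all 10 members as higher, 7 of them at a raw p under 0.05, beside 14.4% of its 18169 genes, and the lowest adjusted p-value of a member is 0.0873 (Flt1). For 500 mg/L, 8 members are listed as higher and 4 have a raw p under 0.05 (Kdr, Flt1, Angpt1 and Angpt2), beside 16.9% of its genes, with a lowest adjusted p-value of 0.179. Between 500 and 10 mg/L, 2 members have a raw p under 0.05, beside 18.2% of its genes, with a lowest adjusted p-value of 0.0734 (Vegfc). The deposited table gives Tek a fold change of 1.21 and a raw p of 0.00275 at 10 mg/L, and Angpt2 a fold change of 1.32 and a raw p of 0.0223 at 500 mg/L. In it, as in the counts, 0 of 10 members passed an adjusted p of 0.05 in any of these comparisons.

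Per kilobase of the longest coding transcript in GENCODE M21, the ligands spanned the whole range of levels. In controls Vegfa stood at 32.5 ± 6.75 CPM per kb (SD, n = 10) and Vegfb at 32.2 ± 2.40, followed by Nrp1 at 21.6 ± 4.45 and Angpt2 at 19.4 ± 6.72. Kdr was at 9.73 ± 2.08, Flt1 at 4.59 ± 1.13, Tek at 4.51 ± 0.527 and Flt4 at 4.34 ± 0.557 CPM per kb. Angpt1 at 2.61 ± 0.630 and Vegfc at 2.38 ± 0.634 were the lowest. The neighbours Vegfa and Vegfb, Nrp1 and Angpt2, Flt1, Tek and Flt4, and Angpt1 and Vegfc lay closer together than 1 SD. The per-length level depends on the transcript taken, and where several exist the shorter ones would give higher values, most of all for Vegfa and Vegfc, whose shortest annotated coding transcripts have 513 and 555 bases.

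The members varied together from mouse to mouse, which was examined on log2 CPM after the mean of each of the 4 sets of 5 mice had been removed. Of 45 pairs, 34 correlated positively, and 19 passed a permutation test within sets (two-sided, 100000 permutations, Benjamini-Hochberg over the 45 pairs), 18 of them positive. Kdr, Flt1, Nrp1, Angpt1, Vegfc and Tek formed 1 block: all 15 pairs among these 6 passed by Pearson's r. By rank Angpt1 and Tek did not pass (Spearman's rho = 0.55, adjusted p = 0.0618, permutation). The r of that pair was 0.39 within experiment 1 and 0.89 within experiment 2. These correlations say which genes shared the differences between mice and nothing about dose, since the set means are gone. The share of pairs of all genes that would pass the same test was not counted. The counts of pairs therefore have no background and do not set the members apart from other genes.

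**Figure D3:**
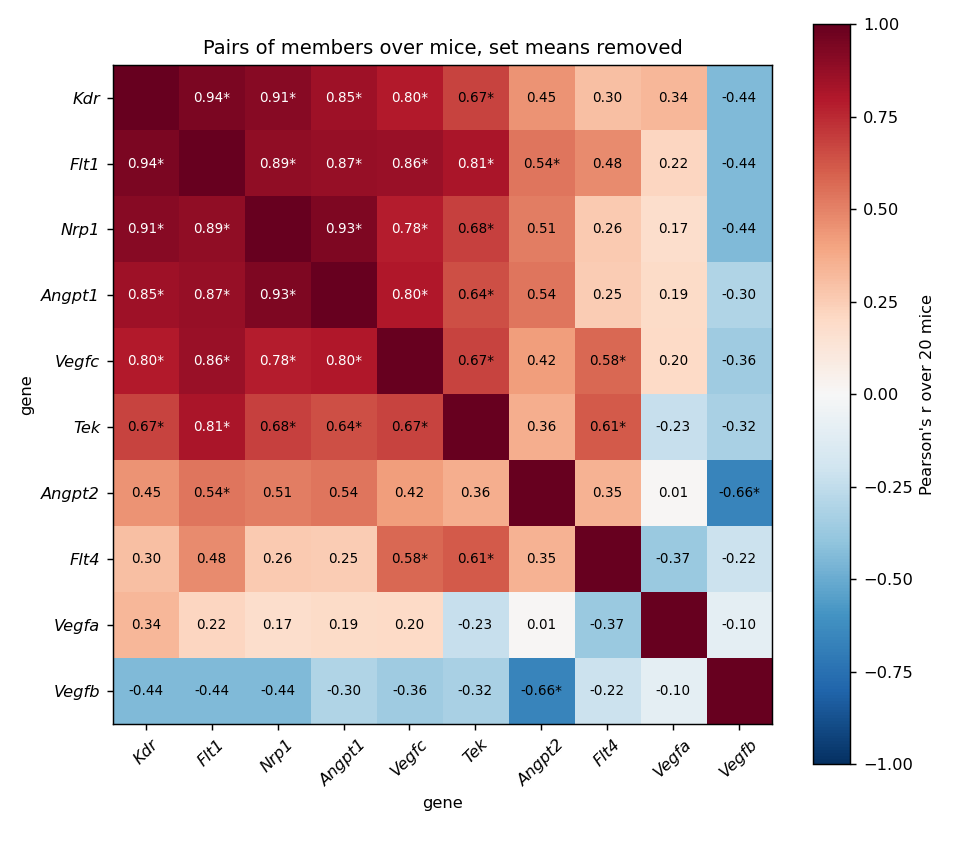
Pearson's r of each pair of genes over 20 mice, on log2 CPM with the 4 set means removed, where an asterisk marks an adjusted permutation p under 0.05. The block of Kdr, Flt1, Nrp1, Angpt1, Vegfc and Tek is red throughout, Vegfa has no asterisk, and Vegfb is blue against every gene.

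The receptors Kdr and Flt1 had the highest correlation, with Pearson's r = 0.94 and Spearman's rho = 0.94 (adjusted p = 0.000225 and 0.00015, permutation, 20 mice). The raw p of 1e-05 is the smallest these permutations can give. Without the 2 mice farthest from the median of Kdr, r was 0.93, and it was 0.97 within experiment 1 and 0.90 within experiment 2. Of the pairs with TIE2, Flt1 and Tek had r = 0.81 and rho = 0.76 (adjusted p = 0.00072 and 0.00368, permutation), r = 0.74 without 2 mice, and 0.71 and 0.98 within experiments 1 and 2. Kdr and Tek had r = 0.67 and rho = 0.67 (adjusted p = 0.0117 and 0.0210, permutation), with r = 0.53 without 2 mice, and 0.59 and 0.83 within the experiments. Nrp1 and Angpt1, a co-receptor and a ligand of different pathways, had r = 0.93 and rho = 0.93 (adjusted p = 0.000225 and 0.00015, permutation), r = 0.93 without 2 mice, and 0.94 and 0.93 within the experiments. As the ratio of Flt1 to Kdr estimated counts shows, the pair moved almost in step: it was 0.605 ± 0.0401 at 10 mg/L (SD, n = 5), 0.575 ± 0.0555 at 500 mg/L (n = 5) and 0.548 ± 0.0555 in controls (n = 10), and no test was made of it.

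VEGFR3 was set against each of the other receptors. Flt4 and Tek had r = 0.61 and rho = 0.54 (adjusted p = 0.0337 and 0.0618, permutation), with r = 0.46 without 2 mice, and 0.79 and 0.50 within experiments 1 and 2, so the pair passed by Pearson's r and not by rank. Flt1 and Flt4 had r = 0.48 and rho = 0.37 (adjusted p = 0.101 and 0.227, permutation), r = 0.59 without 2 mice, and 0.61 and 0.39 within the experiments. Kdr and Flt4 had r = 0.30 and rho = 0.26 (adjusted p = 0.323 and 0.405, permutation), r = 0.42 without 2 mice, and 0.52 and 0.11 within experiments 1 and 2. Flt4 and its ligand Vegfc had r = 0.58 and rho = 0.59 (adjusted p = 0.0288 and 0.0339, permutation), with r = 0.55 without 2 mice, and 0.67 and 0.54 within the experiments.

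The angiopoietins did not follow each other closely. Angpt1 and Angpt2 had r = 0.54 and rho = 0.57 (adjusted p = 0.0526 and 0.0354, permutation), r = 0.60 without 2 mice, and 0.69 and 0.41 within experiments 1 and 2, so the pair passed by rank and not by Pearson's r. Angpt2 and the receptor Tek had r = 0.36 and rho = 0.32 (adjusted p = 0.234 and 0.277, permutation), r = 0.21 without 2 mice, and -0.01 and 0.65 within the experiments. The ratio of Angpt2 to Angpt1 estimated counts was 6.55 ± 2.14 at 10 mg/L (SD, n = 5), 7.45 ± 1.97 at 500 mg/L (n = 5) and 6.37 ± 2.27 in controls (n = 10), a difference smaller than the spread between mice. These ratios are not adjusted for transcript length, so their size has no meaning beyond a comparison between mice. The negative pair that passed was Vegfb and Angpt2, with r = -0.66 and rho = -0.71 (adjusted p = 0.0119 and 0.00471, permutation), r = -0.71 without 2 mice, and -0.79 and -0.56 within experiments 1 and 2.

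**Figure D4:**
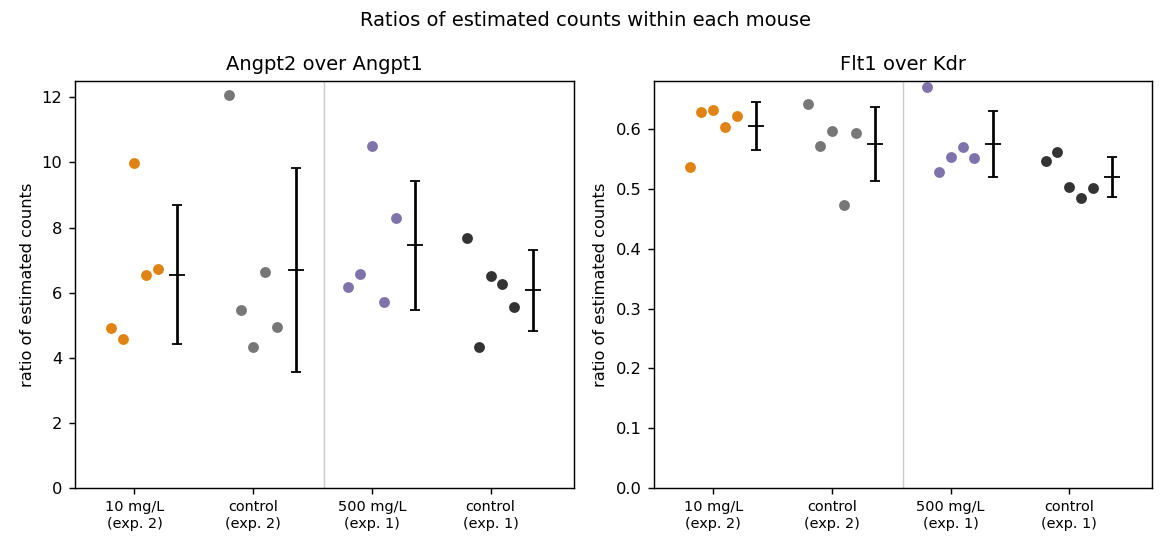
Ratio of Angpt2 to Angpt1 (left) and of Flt1 to Kdr (right) estimated counts in every mouse, with the mean and SD of each set of 5 mice. The Angpt2 to Angpt1 ratio of 12.1 in control replicate 1 is the highest of the 20, and the sets overlap in both panels.

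Vegfa, with Vegfb the ligand of highest level per length, took no part in the block: 0 of its 9 pairs passed. Vegfa and Kdr had r = 0.34 and rho = 0.39 (adjusted p = 0.288 and 0.204, permutation), with r = 0.36 without 2 mice. Vegfa and Nrp1 had r = 0.17 and rho = 0.30 (adjusted p = 0.538 and 0.324, permutation), with r = 0.28 without 2 mice. Vegfa and Angpt2 had r = 0.01 and rho = 0.13 (adjusted p = 0.973 and 0.661, permutation), with r = -0.04 without 2 mice. The pooled values hide opposite signs in the experiments: within experiments 1 and 2, r was 0.74 and -0.23 with Kdr, 0.75 and -0.44 with Nrp1, and 0.71 and -0.57 with Angpt2. The difference between the experiments was not tested.

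**Figure D5:**
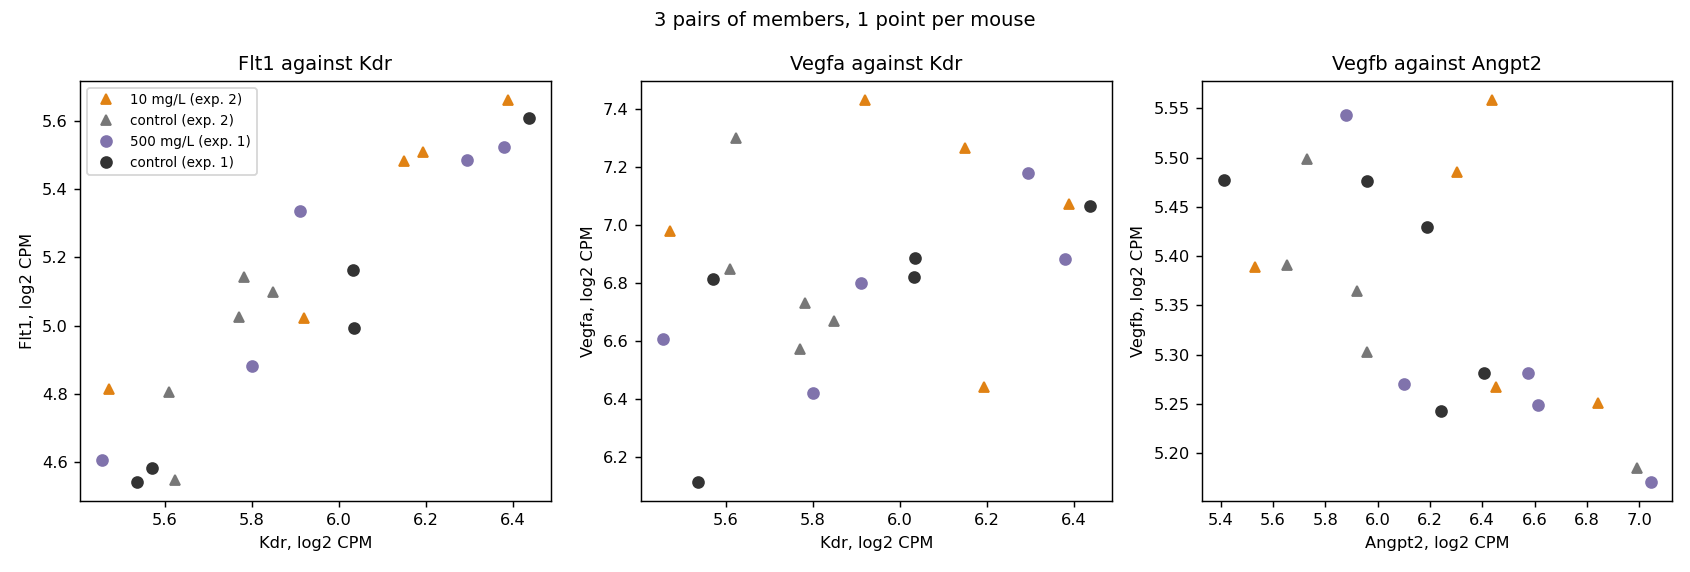
Log2 CPM of Flt1 against Kdr, of Vegfa against Kdr and of Vegfb against Angpt2, 1 point per mouse, with triangles for experiment 2 and circles for experiment 1. Flt1 climbs with Kdr in both experiments, Vegfa does so among the circles only, and Vegfb declines as Angpt2 climbs.

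Among the 13176 other genes with a mean of at least 2 CPM, those most like 3 of the members over the 20 mice were listed by Pearson's r with set means removed, as a description. For Kdr they were Igfbp4 (r = 0.95), Cldn1, Lamc1 and Cnrip1 (each 0.93 to 0.94). For Vegfa they were Sh3bp5 (r = 0.90), Zfp462, Zmiz1 and Pex11a. For Angpt2 they were D630039A03Rik (r = 0.90), Pcdhga1, Gnpda2 and Pcdhga6.

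Markers of the cells that the follicle and its wall hold moved with the block as well. For each of 10 marker lists the CPM of its genes were summed per mouse, and each sum was correlated with each member on the log2 scale with set means removed, 100 relations in all. The endothelial sum (Pecam1, Cdh5, Tie1 and 13 further genes, none of them a member) passed with 6 members: Flt1 (r = 0.93), Nrp1 (0.89), Tek (0.87), Kdr (0.86), Angpt1 (0.83) and Vegfc (0.77). Stromal fibroblast markers passed with the same 6, among them Angpt1 (0.94), Nrp1 (0.94), Kdr (0.90) and Tek (0.60). Pericyte and smooth muscle markers passed with 5 of them, among them Nrp1 (0.91) and Angpt1 (0.91), and leukocyte markers with 6, among them Kdr (0.81). Granulosa markers ran the other way and passed with 6 members, among them Nrp1 (-0.69), Angpt2 (-0.63) and Kdr (-0.61). Luteal markers passed with 3 members, Vegfc (0.73), Angpt1 (0.62) and Flt1 (0.61). Theca markers passed with Flt4 (0.65), lymphatic endothelial markers with Angpt2 (0.65), red cell transcripts with Kdr (0.60) and oocyte markers with 0 members. Flt4 had r = 0.12 with the lymphatic endothelial sum. The share of all genes that would pass with each sum was not counted, so these counts of members have no background. Such sums follow their most abundant genes. Over all mice Hsd3b1 averaged 3950 CPM of a theca sum of 5482 CPM. Of a lymphatic sum of 140 CPM, Ccl21a averaged 68.4 CPM and Prox1 3.33 CPM.

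For Flt1 and the endothelial sum rho was 0.89, and r was 0.91 without 2 mice, and 0.91 and 0.98 within experiments 1 and 2 (adjusted p of r = 0.000286, permutation). For Angpt1 and the stromal sum rho was 0.95, and r was 0.96 without 2 mice, and 0.94 and 0.98 within the experiments (adjusted p of r = 0.00025, permutation). For Kdr and the granulosa sum rho was -0.66, and r was -0.58 without 2 mice, and -0.51 and -0.77 within the experiments (adjusted p of r = 0.0477, permutation). Vegfa passed with none of the 10 lists and had r = -0.07 with the endothelial sum. Vegfb was the other member that passed with none. What part the make-up of the dissected tissue has in the spread of these genes between mice was not tested.

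The endothelial markers stood higher at 10 mg/L, as Tek did, without passing the adjusted test. At 10 mg/L 16 of 16 had a positive log2 change, with a median of 0.29 against -0.00 for all genes, 9 of 16 had an unadjusted p under 0.05, beside 6.22% of all genes, and 0 passed after adjustment. Against the controls of experiment 2, 16 of 16 were positive with a median of 0.31, and 10 had an unadjusted p under 0.05, beside 6.45% of all genes. Here and for the lists below, the genes of a list were read in the same mice and are not separate observations. No fit with a mouse left out was made for these lists. Pecam1, a junction protein of endothelial cells, was higher by a log2 of 0.31 ± 0.09 (SE, adjusted p = 0.633), Tie1, the orphan partner of TIE2, by 0.40 ± 0.13 (adjusted p = 0.692), Esam by 0.36 ± 0.12 (adjusted p = 0.688) and Eng by 0.42 ± 0.14 (adjusted p = 0.664). Their summed level was 435 to 593 CPM at 10 mg/L (median 571), 359 to 519 at 500 mg/L (median 458) and 342 to 531 in controls (median 449). At 10 mg/L replicates 2, 4 and 5 lay above every control, with 571, 587 and 593 CPM. Replicates 1 and 3 lay within the control range, with 472 and 435 CPM. In the mice at 500 mg/L 9 of 16 were positive, with a median of 0.03, and 0 had an unadjusted p under 0.05, beside 8.69% of all genes. None of the 16 was at 0 in all mice, and their part in the values of Tek, Flt1 and Kdr at 10 mg/L was not tested.

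The other cell markers gave no adjusted call at either dose, and several differed between the controls of the 2 experiments by more than they did between exposed mice and all controls. Pericyte and smooth muscle markers had a median log2 change of 0.08 at 10 mg/L and -0.02 at 500 mg/L over 10 genes, stromal fibroblast markers 0.04 and -0.08 over 6, and granulosa markers -0.01 and 0.07 over 9. These medians were 0.04 and -0.05, 0.02 and -0.10, and -0.02 and -0.04 against the controls of the same experiment. Theca markers had 0.00 and 0.07 over 7 genes, and -0.06 and 0.24 against the controls of the same experiment.

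Lymphatic endothelial markers, from the cells in which VEGFR3 is best known, had a median of 0.07 at 10 mg/L and 0.21 at 500 mg/L over 6 genes. Within the experiments the order turned, with 0.25 at 10 mg/L (5 of 6 positive) and 0.04 at 500 mg/L (3 of 6 positive). At 10 mg/L 2 of them had an unadjusted p under 0.05, beside 6.45% of all genes. The controls of experiment 1 were higher than those of experiment 2 by a median of 0.43. Prox1, their defining transcription factor, was at -0.08 ± 0.20 (SE) at 10 mg/L and 0.34 ± 0.19 at 500 mg/L, and at 0.14 ± 0.21 and 0.15 ± 0.21 against the controls of the same experiment.

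Leukocyte markers had a median of 0.00 at 10 mg/L and -0.24 at 500 mg/L over 8 genes. Within the experiments they had 0.25 (7 of 8 positive) and -0.46 (0 of 8 positive), and 8 of 8 were higher in the controls of experiment 1 than in those of experiment 2, by a median of 0.57. Oocyte markers had 0.04 and 0.02 over 7 genes, and -0.11 (1 of 7 positive) and 0.19 (7 of 7 positive) against the controls of the same experiment, with 0 of 7 higher in the controls of experiment 1 and a median of -0.30. Luteal markers had 0.49 and 0.00 over 6 genes, and 1.12 (5 of 6 positive) and -0.25 (1 of 6 positive) against the controls of the same experiment. At 10 mg/L 2 of them had an unadjusted p under 0.05 there, beside 6.45% of all genes. The controls of experiment 1 were higher by a median of 0.95. The summed level of the luteal markers ranged from 673 to 3174 CPM at 10 mg/L, 606 to 1345 CPM at 500 mg/L and 409 to 3747 CPM in controls.

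The 5 red cell transcripts had a positive change at both doses, with medians of 0.64 at 10 mg/L and 0.74 at 500 mg/L, and of 0.40 and 1.11 against the controls of the same experiment. Their summed level was 25.5 to 113 CPM at 10 mg/L, 31.0 to 133 CPM at 500 mg/L and 17.0 to 75.7 CPM in controls. What part these markers have in the values of the members was not tested.

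The rest of the pathway gave no adjusted call either. Of 12 further ligands, receptors and co-receptors, 9 were positive at 10 mg/L with a median log2 change of 0.14, and 2 had an unadjusted p under 0.05, beside 6.22% of all genes: Tie1 (above) and Ptprb, the phosphatase that restrains TIE2, at 0.33 ± 0.14 (SE, adjusted p = 0.758). The repelling ligands of neuropilins, Sema3a and Sema3f, stood at 0.40 ± 0.26 and 0.31 ± 0.15, and Sema3a at 0.68 ± 0.29 against the controls of experiment 2. Of the same 12 at 500 mg/L 7 were positive with a median of 0.02, and 0 had an unadjusted p under 0.05, beside 8.69% of all genes. Against the controls of experiment 1, 4 of 12 were positive, with a median of -0.03. Of 12 genes of TIE2 signalling, 0 had an unadjusted p under 0.05 at either dose, and the medians were -0.05 at 10 mg/L and -0.05 at 500 mg/L.

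Of 27 genes of VEGF receptor signalling, 1 was higher and 1 lower at an unadjusted p under 0.05 at 10 mg/L, and 1 was higher and 5 lower at 500 mg/L, with medians of -0.02 at both doses. Of all genes, 6.22% had such a p at 10 mg/L and 8.69% at 500 mg/L. Within the experiments 1 was higher and 1 lower at 10 mg/L, beside 6.45% of all genes, and 0 were higher and 1 lower at 500 mg/L, beside 5.19%. Map2k1, a kinase of the ERK cascade, was at 0.23 ± 0.08 at 10 mg/L (SE, adjusted p = 0.740). At 500 mg/L the p38 kinase gene Mapk14 was at -0.19 ± 0.05 (adjusted p = 0.274), its target Mapkapk2 at -0.16 ± 0.06 (adjusted p = 0.462) and the calcineurin subunit Ppp3ca at 0.24 ± 0.07 (adjusted p = 0.325). These 3 genes were at -0.15 ± 0.06, -0.07 ± 0.06 and 0.11 ± 0.05 against the controls of experiment 1.

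Hypoxia raises Vegfa through HIF factors in many cells, and 18 genes of that response were read beside it. At 10 mg/L 1 was higher and 3 lower at an unadjusted p under 0.05, with a median of 0.03, and at 500 mg/L 2 were higher and 1 lower, with a median of 0.04, beside 6.22% and 8.69% of all genes. Set against the controls of the same experiment, 0 were higher and 4 lower at 10 mg/L, with a median of -0.02, beside 6.45% of all genes. At 500 mg/L 2 were higher and 0 lower, with a median of 0.10, beside 5.19% of all genes. Egln1, the oxygen sensor that marks HIF for decay, was at -0.19 ± 0.08 (SE, adjusted p = 0.761) at 10 mg/L and -0.23 ± 0.08 (adjusted p = 0.431) at 500 mg/L, and at -0.26 ± 0.09 and -0.15 ± 0.09 against the controls of the same experiment. The HIF targets Ankrd37 and Pfkfb3 had opposite signs: Ankrd37 was at -0.50 ± 0.23 and 0.29 ± 0.22, and Pfkfb3 at 0.47 ± 0.21 and -0.13 ± 0.22, at 10 and 500 mg/L. Ankrd37 was low, with a mean of 1.04 CPM over all mice (0.413 to 1.68). Pfkfb3 averaged 48.8 CPM and reached 114 CPM in its highest mouse.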

How the data were processed

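Poly(A)-selected, stranded libraries were read for 101 cycles from 1 end, per the labels. The submitters' processing notes give GRCm39 as the build and name Salmon 1.2.0, R 4.1.2 with limma and edgeR, and FastQC 0.11.8. Which annotation was used, and how the authors' model was set up, is not given in the sources. The authors deposited estimated counts per gene, not normalised, which share reads between similar transcripts by estimation. Per the file headers, the authors' deposited table of 18169 kept genes also gives average log2 expression, raw and adjusted p-values, signed fold changes and an F statistic, a score of the 3 groups together. How the authors' p-values were computed is not given there, and the table was used only where it is named.

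Estimated counts were rounded, with a median change of 79.96 in the total of a library. In R 4.3.3, edgeR 4.0.16 kept 17810 genes by its expression filter, scaled libraries by TMM and fitted a robust quasi-likelihood model with 1 mean per group, two-sided, with Benjamini-Hochberg adjustment at 0.05. A model with 1 mean per group and experiment gave comparisons within experiments. The script was tested on simulated data. CPM use TMM-scaled totals, and log2 CPM a prior count of 2. SD is over mice, SE is of the log2 change, and at totals of at least 39.9 M counts the spread between mice, not counting error, was the limit. Within groups, 65 pairs of libraries had a chi-square of 20.9 to 143 per gene, so none was a copy.

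All members were named in each comparison. Of each gene list, up to 3 or 4 genes with the smallest p at either dose were named. Of the correlated pairs 10 set pairs were printed, with others that were chosen after their values were seen. These were Nrp1 with Angpt1, Vegfb with Angpt2, Angpt1 with Tek, and Flt4 with Tek and with Flt1. The relations with marker sums that were given in full were likewise not set in advance. Among them is Flt1, the member with the highest r with the endothelial sum. The members and lists were chosen with earlier results of these data known. Alternatives were other scaling factors, other filters, DESeq2 1.42.0, limma-voom (limma 3.58.1), only the groups compared, experiment as a term, controls of 1 experiment, a replicate block and each mouse left out. Surrogate variables (sva 3.50.0) and leaving mice out of the correlations were added after the data were seen. Correlations used NumPy 2.4.6 and SciPy 1.17.1. Promoters are RefSeq's, and transcript lengths GENCODE M21's, both on GRCm38.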

Additional observations from a re-analysis of the deposited data

Results flagged for a closer look

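In each group or set of mice, the highest and lowest level of each member and of both ratios were compared with the nearest other mouse by Dixon's test, and 7 of 60 groups had a mouse that stood apart. Chance flags about 1 in 20 groups, which is 3 of 60 here, and groups of all controls and of 1 experiment share mice.

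Replicate 2 at 500 mg/L had 46.6 CPM of Vegfb, above the other 4 mice of its group, the nearest of which had 38.9 CPM. Control replicate 7 had 86.7 CPM of Kdr and 48.8 CPM of Flt1, where the nearest control had 65.5 CPM of Kdr and 35.8 CPM of Flt1. Control replicate 4 had 58.3 CPM of Nrp1, below the other controls of experiment 2, the nearest of which had 79.9 CPM. Control replicate 1 had 127 CPM of Angpt2, apart both from all controls, with the nearest at 84.9 CPM, and from those of experiment 2, with the nearest at 62.2 CPM. Its ratio of Angpt2 to Angpt1 was 12.1, with the nearest control at 7.68. Leaving out control replicate 7 gave 3 members an unadjusted p under 0.05 at 10 mg/L by edgeR's quasi-likelihood test. Leaving out control replicate 1 gave 1 member such a p at 500 mg/L, and after adjustment 0 passed in both cases. The share of all genes at such a p was not counted in these fits.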

How the results depend on the processing

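The count of members past an adjusted p of 0.05 was 0 in all 7 comparisons under every alternative run. By DESeq2 and limma-voom it was also 0, and 0 to 2 members had an unadjusted p under 0.05. The 10 positive signs at 10 mg/L held under all alternatives except leaving out replicate 2 at 10 mg/L. With 3 surrogate variables the median there was 0.15. In that model 2 members had an unadjusted p under 0.05 at 10 mg/L (Vegfa and Tek) and 2 at 500 mg/L (Kdr at 0.0161 and Flt1 at 0.0289). The share of all genes at such a p was not counted by DESeq2, by limma-voom or with surrogate variables.

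The number of all genes that passed moved with the method. At 10 mg/L against controls it was 1, with 0 under upper-quartile factors, no filter, limma-voom, experiment as a term, the replicate block and 3 surrogate variables, 8 by DESeq2, and 0 to 1 with a mouse left out. At 500 mg/L it was 2, with 0 under limma-voom, experiment as a term and surrogate variables, 86 by DESeq2, 17 under the replicate block, and 0 to 3 with a mouse left out. Between doses it was 2, with 0 under upper-quartile factors, no filter, limma-voom, only the groups compared and experiment as a term, 123 by DESeq2, 8 under the block, 10 with surrogate variables, and 0 to 4 with a mouse left out. The cause was not tested. The replicate block has a term for each replicate number, and the controls of experiment 1 share their numbers with no exposed mouse. Under the block the 500 mg/L mice were therefore set against the controls of experiment 2 only. Dose and experiment cannot be told apart in that fit, so its 17 genes are not a count for dose alone. Outside the block the replicate numbers were not taken as pairs: mice with the same number in different groups correlated by -0.17 to 0.23 over all genes, and in 9 of 30 cases a mouse correlated best with its own number in another group.

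Some signs turned, all of values with an adjusted p over 0.05. At 500 mg/L Vegfa was 0.0055 with upper-quartile factors, 0.0277 with experiment as a term or its own controls and 0.11 with surrogate variables, and Nrp1 was -0.0083 by limma-voom and -0.0352 under the replicate block. The value under the block also holds the difference between experiments. Tek at 500 mg/L was -0.00103 with experiment as a term or its own controls. Between doses, surrogate variables gave Kdr 0.14, Flt1 0.0604, Nrp1 0.0049 and Angpt1 0.13. With mice left out, Vegfb at 10 mg/L ran from -0.0128 to 0.0598, and at 500 mg/L Vegfa ran from -0.13 to 0.0701, Nrp1 from -0.15 to 0.16 and Tek from -0.0646 to 0.0838. Between doses Kdr ran from -0.175 to 0.0532, Angpt1 from -0.25 to 0.0557 and Angpt2 from -0.0544 to 0.28. Of the 45 pairs of members 20 passed by Spearman's rho, 21 with set means kept and 15 to 23 with a mouse left out.

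Sizes moved further than signs. At 10 mg/L surrogate variables gave Kdr 0.06, Nrp1 0.04, Angpt1 0.06, Vegfc 0.20 and Flt1 0.20. With mice left out, the values at 10 mg/L ran from 0.16 to 0.39 for Vegfa, 0.11 to 0.33 for Kdr, 0.12 to 0.27 for Flt4, 0.11 to 0.40 for Nrp1, 0.10 to 0.41 for Angpt1 and 0.11 to 0.41 for Angpt2. At 500 mg/L they ran from -0.13 to -0.03 for Vegfb, -0.22 to -0.05 for Vegfc, 0.05 to 0.27 for Kdr, 0.13 to 0.34 for Flt1, 0.03 to 0.13 for Flt4, 0.01 to 0.26 for Angpt1 and 0.21 to 0.53 for Angpt2.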
